A study of Mus musculus with 6 samples.

Results

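Non-Hox homeobox and Pax factors are transcription factors that pattern the embryo, and their transcripts were followed here in whole mouse ovaries. Genes were taken by symbol (the Pax, Lhx, Dlx, Msx, Irx, Emx, Otx and Pitx families, the sine oculis homologues, and Nkx and Pou genes, with Lhx8 left out), and 71 of the 44788 genes listed are reported. Of these 71 genes, 37 had 10 or more counts summed over the 6 ovaries and were kept, and 34 had fewer, of which 17 had no count in any ovary. The samples were 3 wild type (Bnc1+/+) and 3 homozygous Bnc1tr/tr ovaries, all from C57BL/6 J mice 8 weeks old. Bnc1tr/tr mice carry a deletion of a few bases in exon 4 of Bnc1 in every cell, bred from heterozygous parents, which shifts the reading frame and leads to an early stop codon. The mutation was modelled on one found in a family with primary ovarian insufficiency, so the comparison asks how expression in the whole ovary differs when the basonuclin 1 protein is truncated. Bnc1+/+ ovaries were numbered 1, 4 and 7 and Bnc1tr/tr ovaries 1, 2 and 3, and values are given in that order below.

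Homeodomain proteins bind short AT-rich DNA motifs, and Pax proteins carry a paired domain, with or without a homeodomain beside it. In embryos these factors are switched on in restricted places, such as the eye, kidney, limb or nervous system, and in adult tissues most of their promoters are kept silent by Polycomb proteins. A few of them have settled roles in the female reproductive tract. Lhx9 and Emx2 are needed to form the gonad, Pax2 and Pax8 build the ducts that give rise to the oviduct and uterus, Irx3 and Irx5 are made in granulosa cells, and Pou5f1 (OCT4) marks germ cells and oocytes.

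The libraries held 25247770 to 34406296 counts each. Bnc1 itself gave 375, 444 and 381 counts in Bnc1+/+ and 527, 355 and 326 counts in Bnc1tr/tr ovaries, a log2 fold change of 0.12 (standard error 0.18, edgeR adjusted p = 0.733), so its total count does not check the labels, since reads with the deletion are counted too. Ovarian identity was checked on marker lists, and all 12 oocyte, 8 granulosa cell and 7 corpus luteum markers were expressed. Bnc1tr/tr ovary 3 and Bnc1+/+ ovary 1 stood apart in oviduct markers. The summed level of 4 oviduct secretory markers was 468 CPM (counts scaled per library with TMM factors, as edgeR gives them) in the first and 145 CPM in the second, against 27.8 to 49.8 CPM in the other 4 ovaries. For 11 motile cilia markers it was 150 and 54.5 CPM, against 20.1 to 25.5 CPM.

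Of the 37 genes, 21 passed edgeR's filter on low counts and were tested for a difference between genotypes in the fit over all 19423 genes. With an adjusted p under 0.05, 3 of the 21 rose in Bnc1tr/tr ovaries (Pax6, Pax5 and Pax2) and 1 fell (Lhx6). These are 14.3% and 4.76% of the tested members, where the same test called 2.88% of all genes higher and 4.19% lower. At an unadjusted p under 0.05, 9 members (42.9%) were higher and 2 (9.52%) were lower, against 11.9% and 12.3% of all genes. In all, 15 of the 21 had a positive log2 fold change and their median was 0.30, while 52.6% of all tested genes were positive with a median of 0.018. The filter asks for about 0.361 CPM in at least 3 ovaries, and Pax6 reached it only in the 3 Bnc1tr/tr ovaries and Pax5 in these and 1 Bnc1+/+ ovary. Such genes enter the test because they are high in Bnc1tr/tr, so the counts over the 21 are a description only. The 4 calls depended on single ovaries, as did calls over all genes. Without Bnc1+/+ ovary 4, without Bnc1+/+ ovary 7 or without Bnc1tr/tr ovary 3 the edgeR test called 0 of the members, with 8 or 9 at an unadjusted p under 0.05, and without Bnc1tr/tr ovary 1 it called 2 (Pax5 and Lhx6). Without Bnc1+/+ ovary 1 it called 3 (Pax5, Pax6 and Pax8), all higher, and Pax2 and Lhx6 were lost (adjusted p = 0.0950 and 0.0597). Without Bnc1tr/tr ovary 2 it called 6, adding Pou4f1 and Emx2. Calls over all genes fell as well, from 1372 on all 6 ovaries. They were 781, 320 and 518 without Bnc1+/+ ovary 1, 4 or 7. Without Bnc1tr/tr ovary 1, 2 or 3 they were 979, 1282 and 634.

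**Figure D1:**
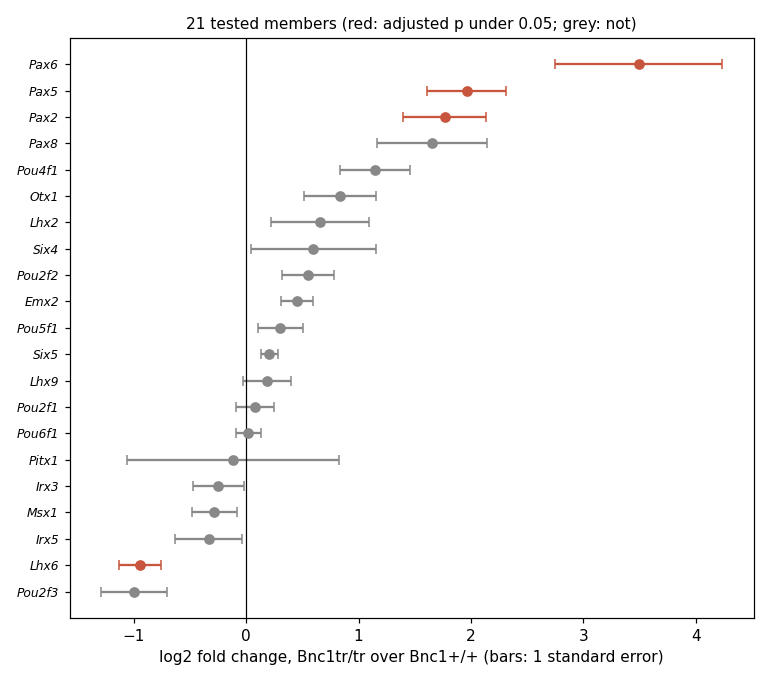
Log2 fold change (Bnc1tr/tr over Bnc1+/+) of the 21 tested members with 1 standard error, red where the adjusted p was under 0.05. Pax6, Pax5 and Pax2 lie furthest to the right, between 1.77 and 3.49, and Lhx6 lies at -0.94.

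Because levels are shares of a whole-ovary library, fewer cells of a type and less RNA per cell cannot be told apart. Corpus luteum and endothelium were the marker lists with most of their genes called. Summed corpus luteum markers were at 20261, 23639 and 22240 CPM in Bnc1+/+ and at 6313, 11703 and 10213 CPM in Bnc1tr/tr ovaries, with 6 of 7 genes called lower and none higher. All 4 endothelial markers were called lower, with sums of 402, 437 and 520 CPM in Bnc1+/+ and 253, 277 and 284 CPM in Bnc1tr/tr ovaries. Summed oocyte markers overlapped, at 695, 654 and 533 CPM in Bnc1+/+ and 1015, 664 and 1011 CPM in Bnc1tr/tr ovaries, with 4 of 12 genes called higher (Gdf9, Bmp15, Dazl and Oosp1). Of the 12, 9 had a positive log2 fold change, Ddx4, Figla and Sohlh1 had a negative one, and none was called lower. Within Bnc1tr/tr, ovary 2 was the lowest for oocyte markers, and it was also the lowest for 6 of the 9 tested members that were higher without overlap. The part of these differences in cell makeup in the values below was not tested.

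The Pax family had 9 genes in the table, 5 with 10 or more counts (Pax1, Pax2, Pax5, Pax6 and Pax8) and 4 that were tested, and all 4 lay higher in every Bnc1tr/tr ovary than in any Bnc1+/+ ovary. Pax1, which was not tested, overlapped between the genotypes. Among all 24812 genes with 10 or more counts, 13.7% were higher without overlap. Since Pax6 and Pax5 passed the filter through the Bnc1tr/tr ovaries, the count of 4 is a description. Summed over the 5 genes, expression was 2.79, 1.96 and 1.58 CPM in Bnc1+/+ and 9.66, 5.65 and 8.69 CPM in Bnc1tr/tr ovaries. The log2 fold changes of the 4 tested genes ranged from 1.65 to 3.49. Pax2, Pax5 and Pax8 are the closely related members that share one form of the paired domain, and Pax6 belongs to another branch with a full homeodomain.

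Pax6, the master regulator of eye formation, had 7, 3 and 0 counts in Bnc1+/+ and 57, 22 and 31 counts in Bnc1tr/tr ovaries. The gene was close to silent in wild type ovaries and low in all 3 mutant ovaries. Its level went from 0.117 ± 0.132 to 1.32 ± 0.622 CPM (SD, n = 3), with a log2 fold change of 3.49 (standard error 0.74, edgeR adjusted p = 0.0344). With single ovaries left out it lay between 2.91 and 4.66, the highest without Bnc1+/+ ovary 1, which held most of the wild type counts. Pax5, which commits lymphoid precursors to the B cell lineage, had 11, 10 and 8 counts in Bnc1+/+ and 36, 23 and 48 counts in Bnc1tr/tr ovaries. It rose from 0.329 ± 0.0704 to 1.28 ± 0.403 CPM (SD, n = 3), with a log2 fold change of 1.96 (standard error 0.35, edgeR adjusted p = 0.0194). The B cell markers Cd79a and Ms4a1, looked up after the Pax5 values were seen, overlapped between the genotypes. Cd79a had 23 to 45 counts per ovary and Ms4a1 had 3 to 21, and neither was called (edgeR adjusted p = 0.879 and 0.869).

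Pax2, a regulator of kidney and reproductive duct formation, had 21, 38 and 25 counts in Bnc1+/+ and 135, 53 and 77 counts in Bnc1tr/tr ovaries. All 3 mutant ovaries lay above the wild type ones, with ovary 1 the highest. The level rose from 0.929 ± 0.193 to 3.18 ± 1.44 CPM (SD, n = 3), with a log2 fold change of 1.77 (standard error 0.37, edgeR adjusted p = 0.0330). Pax8, its partner in duct and kidney formation and a marker of oviduct secretory cells, had 32, 14 and 13 counts in Bnc1+/+ and 42, 45 and 91 counts in Bnc1tr/tr ovaries. The highest ovary of each genotype for Pax8 was the one with the most oviduct markers. Pax8 levels were 0.686 ± 0.435 and 2.14 ± 0.927 CPM (SD, n = 3), with a log2 fold change of 1.65 (standard error 0.49, edgeR adjusted p = 0.0862), which did not pass. DESeq2 called Pax8 (adjusted p = 0.0207), as did edgeR without Bnc1+/+ ovary 1 (log2 fold change 2.28, adjusted p = 0.0475), and the adjusted p was 0.0646 to 0.276 under its other alternatives. The highest ovary for Pax2, Bnc1tr/tr 1, had 27.8 CPM of summed oviduct secretory markers, and the part of the oviduct markers in these values was not tested. With Bnc1+/+ ovary 1 and Bnc1tr/tr ovary 3 both left out, the log2 fold changes were 4.78 for Pax6, 1.88 for Pax5, 1.75 for Pax2 and 1.87 for Pax8, and none of the 4 was called (edgeR adjusted p from 0.0676 to 0.149, with 2 ovaries per genotype). Pax1 had 10 counts in all and overlapped between the genotypes.

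**Figure D2:**
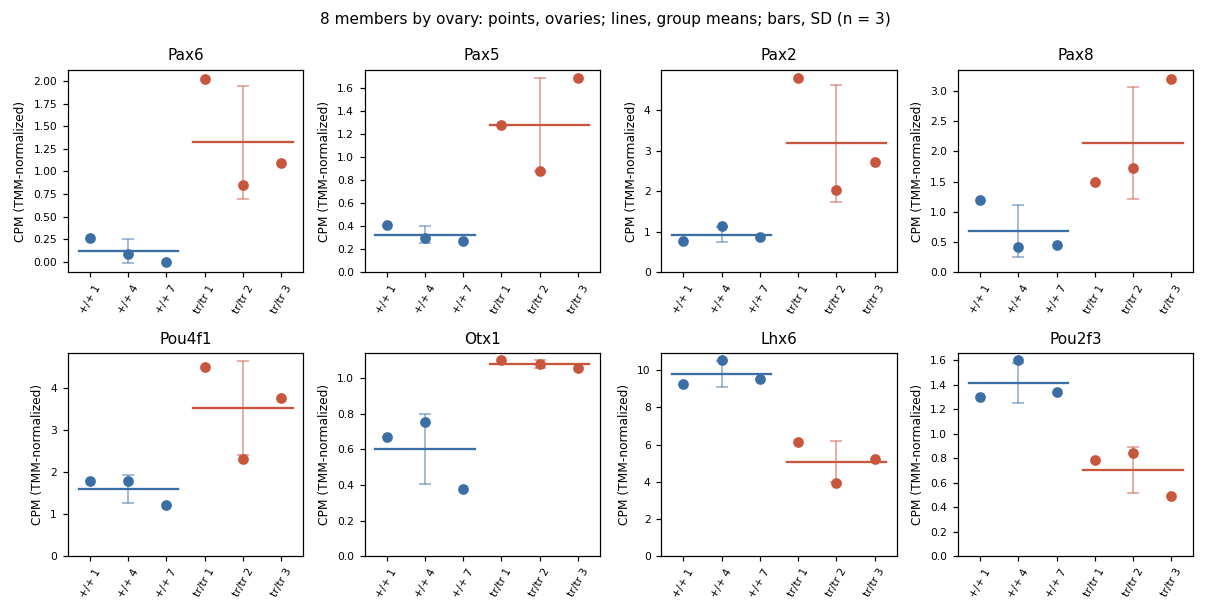
TMM-normalized CPM of 8 members in each ovary (blue, Bnc1+/+ 1, 4 and 7; red, Bnc1tr/tr 1, 2 and 3), with the group mean as a line and the SD as a bar. The genotypes do not overlap in any of the 8 panels, and Lhx6 and Pou2f3 are the genes of these that are lower in Bnc1tr/tr.

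The promoters of the 4 called members are shown because their transcripts moved in the same comparison, Pax2, Pax5 and Pax6 upward and Lhx6 downward. Each is the 250 bases before the RefSeq start nearest the annotated start of the gene, read 5′ to 3′ in the direction of transcription on GRCm38, with every CG dinucleotide in capitals. They lie at chr19:44755502-44755751 (Pax2, plus strand), chr4:44710695-44710944 (Pax5, minus strand), chr2:105668646-105668895 (Pax6, plus strand) and chr2:36105409-36105658 (Lhx6, minus strand).
Pax2: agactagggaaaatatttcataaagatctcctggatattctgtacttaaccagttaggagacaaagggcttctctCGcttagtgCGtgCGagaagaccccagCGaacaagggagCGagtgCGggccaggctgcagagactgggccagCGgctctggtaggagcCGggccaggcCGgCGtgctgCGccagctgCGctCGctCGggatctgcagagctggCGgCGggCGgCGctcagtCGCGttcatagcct
Pax5: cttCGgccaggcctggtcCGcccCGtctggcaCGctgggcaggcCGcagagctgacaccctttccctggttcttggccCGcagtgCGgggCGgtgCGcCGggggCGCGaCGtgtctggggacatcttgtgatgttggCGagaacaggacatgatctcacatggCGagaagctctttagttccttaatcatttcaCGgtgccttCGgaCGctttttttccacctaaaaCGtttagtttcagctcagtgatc
Pax6: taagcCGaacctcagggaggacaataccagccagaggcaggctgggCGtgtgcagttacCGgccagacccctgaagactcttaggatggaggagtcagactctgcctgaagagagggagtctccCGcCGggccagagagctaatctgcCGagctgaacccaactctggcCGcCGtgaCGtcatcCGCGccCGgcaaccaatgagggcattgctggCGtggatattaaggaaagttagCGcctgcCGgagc
Lhx6: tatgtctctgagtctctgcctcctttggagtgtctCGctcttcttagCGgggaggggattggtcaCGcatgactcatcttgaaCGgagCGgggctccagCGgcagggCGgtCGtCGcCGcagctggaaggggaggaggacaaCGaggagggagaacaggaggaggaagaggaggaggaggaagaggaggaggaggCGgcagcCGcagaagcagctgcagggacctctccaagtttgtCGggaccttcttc

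The sequences hold 20 (Pax2), 19 (Pax5), 15 (Pax6) and 14 (Lhx6) CG dinucleotides, so the promoter of the gene that fell is of the same CpG-rich kind as those of the genes that rose. A promoter was counted as CpG-rich with at least 50% G and C and at least 0.6 of the CG number that its base composition predicts. All 4 met this, as did 19 of the 28 members that matched a RefSeq promoter (67.9%). Of all genes with a promoter, tested or not, 31.6% met it, and of the tested genes 57.5%. Among the 17 matched members that were tested 12 were CpG-rich (70.6%), and among the 11 too low for the test 7 were, so this feature was shared by expressed and nearly silent members. The motif GGGCGG, the core of a GC box, was present on either strand in 22 of the 28 members and in 33.1% of all genes. It was present in 14 of the 17 tested members and in 56.3% of tested genes. CCAAT was present in 13 of the 28 and in 34.5% of all genes, and in 8 of the 17 tested members and 35.6% of tested genes. TATAAA, the TATA box core, and TAATTA, a core bound by many homeodomains, were each present in 1 of the 28, and in 6.87% and 2.48% of tested genes. None of these 4 motifs contains another, and a match or its absence is a description of these windows only.

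Pitx1, which specifies the hindlimb and acts in the pituitary, had 10, 58 and 55 counts in Bnc1+/+ and 1, 58 and 42 counts in Bnc1tr/tr ovaries. One ovary of each genotype was low for Pitx1, and these were the ones numbered 1. The log2 fold change of Pitx1 was -0.12 (standard error 0.95, edgeR adjusted p = 0.956), a standard error wide enough that a large change in either direction could not be detected.

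Lhx6 was the one member called lower. This LIM homeobox gene, known for specifying cortical interneurons and for tooth and jaw development, had 249, 350 and 276 counts in Bnc1+/+ and 172, 102 and 148 counts in Bnc1tr/tr ovaries. Every mutant ovary was below every wild type one, and it was the seventh most abundant member per length. Its level fell from 9.77 ± 0.698 to 5.08 ± 1.10 CPM (SD, n = 3), with a log2 fold change of -0.94 (standard error 0.19, edgeR adjusted p = 0.0283). It lies on chromosome 2 from 36081953 to 36105408 on the minus strand. Lhx9, which is required for the gonad to form, had 342, 344 and 351 counts in Bnc1+/+ and 363, 455 and 273 counts in Bnc1tr/tr ovaries. Mutant ovary 2 was the highest and ovary 3 the lowest of all 6, so the genotypes overlapped, with a log2 fold change of 0.19 (standard error 0.21, edgeR adjusted p = 0.641). Lhx2, an eye and forebrain regulator, had 5 to 18 counts per ovary and a log2 fold change of 0.66 (standard error 0.44, edgeR adjusted p = 0.404).

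Of 10 Pou genes with enough counts, 6 were tested, 5 of these had a positive log2 fold change, and none passed. Pou4f1 (BRN3A), a factor of sensory neurons, came nearest, with 48, 59 and 35 counts in Bnc1+/+ and 127, 60 and 107 counts in Bnc1tr/tr ovaries. In CPM all 3 mutant ovaries were above the wild type ones, at 1.59 ± 0.332 and 3.53 ± 1.12 CPM (SD, n = 3), although mutant ovary 2 was close to them at 2.31 CPM. The log2 fold change was 1.15 (standard error 0.31, edgeR adjusted p = 0.0673), and it was called by DESeq2, by edgeR scaled to library size alone and without Bnc1tr/tr ovary 2. Pou2f3, a factor of tuft cells and epidermis, had 35, 53 and 39 counts in Bnc1+/+ and 22, 22 and 14 counts in Bnc1tr/tr ovaries, lower in all 3 mutants (1.41 ± 0.162 and 0.707 ± 0.188 CPM, SD, n = 3, edgeR adjusted p = 0.0842). Pou2f2, a B cell factor, had a log2 fold change of 0.55 without overlap (standard error 0.23, edgeR adjusted p = 0.195). Pou5f1, the germ cell and oocyte factor, had 322, 407 and 309 counts in Bnc1+/+ and 508, 264 and 422 counts in Bnc1tr/tr ovaries. In CPM, mutant ovaries 1 and 3 were above and ovary 2 below every wild type ovary, the same order as for the summed oocyte markers within Bnc1tr/tr. Its log2 fold change was 0.30 (standard error 0.20, edgeR adjusted p = 0.405). The widely expressed Pou2f1 (OCT1) and Pou6f1 had log2 fold changes of 0.077 and 0.019, each smaller than its standard error of 0.17 and 0.11.

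Emx2, needed for the urogenital tract, and Otx1, a forebrain and pituitary factor, were higher in all 3 Bnc1tr/tr ovaries without passing the test. Emx2 was at 18.9, 18.9 and 16.7 CPM in Bnc1+/+ and 28.7, 20.0 and 25.7 CPM in Bnc1tr/tr ovaries, a log2 fold change of 0.45 (standard error 0.14, edgeR adjusted p = 0.103). Without Bnc1tr/tr ovary 2, the one nearest the wild type, it was called (edgeR adjusted p = 0.0349), against 0.0532 to 0.359 under the other alternatives. Its exons share 264 bases with the antisense gene Emx2os, and without a stated strand setting reads from the shared bases cannot be assigned. Emx2os itself had a log2 fold change of 0.12 (standard error 0.19, edgeR adjusted p = 0.736). Otx1 had 18, 25 and 11 counts in Bnc1+/+ and 31, 28 and 30 counts in Bnc1tr/tr ovaries, with a log2 fold change of 0.84 (standard error 0.32, edgeR adjusted p = 0.158). Otx2, a factor of the early embryo and forebrain, had no count in any ovary.

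Six5, a homeobox gene beside the myotonic dystrophy kinase gene, was the most abundant member. It was at 66.8, 66.9 and 71.5 CPM in Bnc1+/+ and 75.1, 81.6 and 79.7 CPM in Bnc1tr/tr ovaries. The genotypes did not overlap, but the difference was small, with a log2 fold change of 0.20 (standard error 0.077, edgeR adjusted p = 0.155). Six4, which acts in gonad and muscle development, had 45, 17 and 18 counts in Bnc1+/+ and 38, 18 and 61 counts in Bnc1tr/tr ovaries. Its highest ovary in each genotype was the one with the most oviduct markers, and its log2 fold change was 0.60 (standard error 0.56, edgeR adjusted p = 0.562). Six3 and Six6, factors of the eye and forebrain, had no count.

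Irx3 and Irx5, which regulate granulosa cells and follicle growth, overlapped between the genotypes and lay lower on average in Bnc1tr/tr. Irx3 was at 17.1, 27.4 and 34.9 CPM in Bnc1+/+ and 22.4, 21.2 and 23.3 CPM in Bnc1tr/tr ovaries. The spread was in the wild type ovaries, where ovary 1 was the lowest and ovary 7 the highest of all 6, and the 3 mutant ovaries were close together. The log2 fold change was -0.25 (standard error 0.23, edgeR adjusted p = 0.557). Irx5 had the same order in wild type ovaries, at 3.64, 5.95 and 6.96 CPM, and 5.29, 4.81 and 3.06 CPM in Bnc1tr/tr ovaries (log2 fold change -0.33, standard error 0.30, edgeR adjusted p = 0.546). Summed granulosa cell markers overlapped as well, at 3164 to 4152 CPM in Bnc1+/+ and 3590 to 5535 CPM in Bnc1tr/tr ovaries, with Amh the one of 8 genes called (higher). Of these 8 markers, 4 had a positive log2 fold change. Irx3 shares 124 exon bases with the antisense gene Irx3os, whose counts also overlapped between the genotypes. Msx1, a target of BMP signalling, had 81, 123 and 118 counts in Bnc1+/+ and 80, 74 and 90 counts in Bnc1tr/tr ovaries, with a log2 fold change of -0.28 (standard error 0.20, edgeR adjusted p = 0.430).

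The remaining 16 members had 10 to 36 counts in all and no more than 17 in any ovary, and did not pass the filter. They were Lhx3, Lhx4, Lhx5, Nkx2-9, Nkx6-2, Pou3f1, Pou3f4, Pou4f2, Pou5f2, Six2, Irx6, Msx2, Dlx1, Dlx4, Dlx5 and Pax1. Lhx4 had 0, 1 and 0 counts in Bnc1+/+ and 3, 4 and 6 counts in Bnc1tr/tr ovaries, and Dlx1 had 0, 1 and 2 against 3, 3 and 2 counts, so both were higher in CPM without overlap. Nkx6-2 had 8, 8 and 9 counts in Bnc1+/+ and 6, 3 and 2 counts in Bnc1tr/tr ovaries. Pou3f4 had 2, 8 and 7 against 0, 0 and 1 counts, and Irx6 had 1, 3 and 4 against 1, 0 and 1 counts, so these 3 were lower without overlap. For Irx6 this held with TMM but not with library size alone, which left 4 members lower in all. Nkx6-2 shares 246 exon bases with Inpp5a on the opposite strand, a gene with 1997 to 2662 counts per ovary. Dlx4 was uneven, with 17, 1 and 8 counts in Bnc1tr/tr and 1, 2 and 0 counts in Bnc1+/+ ovaries. When the filter was left off, edgeR called 0 of these 16 (smallest adjusted p = 0.103), with Lhx4 and Dlx4 higher and Pou3f4 lower at an unadjusted p under 0.05. Msx2 and Dlx5, which act in the reproductive tract, had 9 or fewer counts per ovary and overlapped. Lhx1, needed for the ducts, and Dlx6, the neighbour of Dlx5, had no count.

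Over all 37 members, 11 (29.7%) were higher in every Bnc1tr/tr ovary than in any Bnc1+/+ ovary and 5 (13.5%) were lower in every one, while 21 overlapped. Among all 24812 genes with 10 or more counts, 13.7% were higher and 13.9% lower without overlap. Lhx4 reached the minimum of 10 counts through the Bnc1tr/tr ovaries and Pou3f4 through the Bnc1+/+ ovaries. Dlx1 was separated by 0.0689 CPM in Bnc1+/+ ovary 7 against 0.0704 CPM in Bnc1tr/tr ovary 3, with 2 counts in each. The counts over the 37 are therefore a description only. Of the 11 that were higher, 9 were tested members (Pax6, Pax5, Pax2, Pax8, Pou4f1, Otx1, Pou2f2, Emx2 and Six5), and of the 5 that were lower 2 were (Lhx6 and Pou2f3).

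Levels per length were compared as RPKM, the CPM divided by the exon length in kilobases. Only 10 of the 37 members reached a mean of 1 RPKM over the 6 ovaries. Six5 led with 22.8 ± 0.899 RPKM in Bnc1+/+ and 26.2 ± 1.11 RPKM in Bnc1tr/tr ovaries (SD, n = 3). Irx3 (mean over 6 ovaries 8.83 RPKM), Emx2 (7.16), Pou5f1 (5.78) and Pou6f1 (4.91) followed, and each of these 4 overlapped with its neighbour among them over the ovaries, while Six5 lay above them in every ovary. Irx5, Lhx6, Pou2f1, Lhx9 and Msx1 lay between 1.06 and 1.58 RPKM. Of the 4 called members, Lhx6 was among these 10, and the 3 that rose were low, with means in Bnc1tr/tr ovaries of 0.588 (Pax2), 0.145 (Pax5) and 0.113 RPKM (Pax6). These means were below those of all 10 most abundant members.

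**Figure D3:**
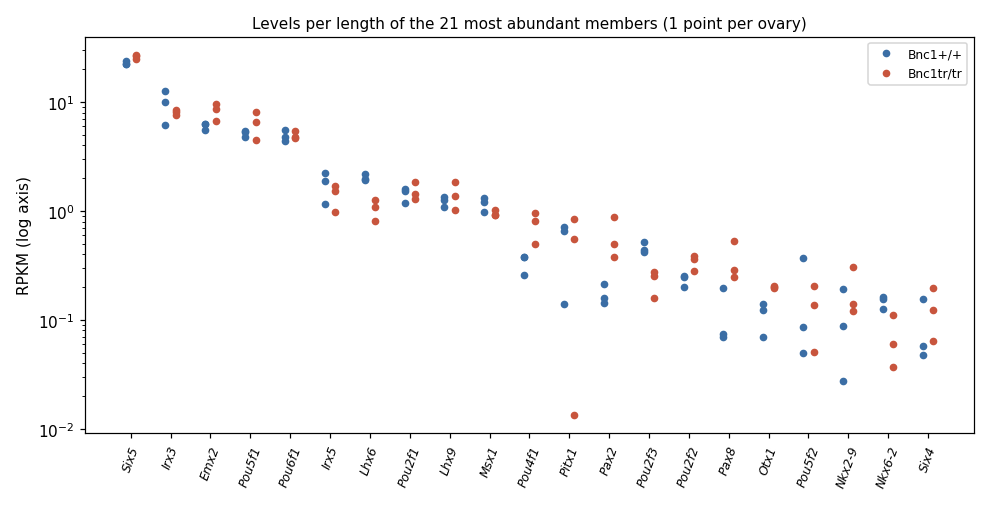
RPKM on a log axis for the 21 members with the highest mean over 6 ovaries, 1 point per ovary (blue, Bnc1+/+; red, Bnc1tr/tr). Six5 lies highest, and Pou4f1, Pax2, Pou2f2, Pax8 and Otx1 show red points above all their blue points at levels under 1 RPKM.

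Neighbouring genes of a cluster differed in their counts. Irx3 and Irx5, 555558 bases apart on chromosome 8, were both among the 10 most abundant members, with 4224 and 858 counts over the 6 ovaries, while Irx6, 298002 bases beyond Irx5, had 10. Of the pair Dlx3 and Dlx4, 15151 bases apart on chromosome 11, Dlx3 had 2 counts and Dlx4 had 29. Nkx2-9 had 32 counts, and its neighbours Nkx2-1 and Pax9 on chromosome 12 had 0 and 2. In the pair Dlx5 and Dlx6 on chromosome 6, 18 and 0 counts were found.

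Cofactors that homeodomain proteins work with were tested alongside. Of 26 cofactor genes found in the table (Eya, Dach, Ldb, Lmo, Pbx, Meis, Pknox and Tle genes), 24 were tested, 1 was called higher and 1 lower, near the shares over all genes of 2.88% and 4.19%. Their median log2 fold change was 0.14, and 8 of the 24 had an unadjusted p under 0.05 in either direction. Over all genes 11.9% were higher and 12.3% lower at that p. Meis2, a TALE homeodomain protein that binds DNA with other homeodomain factors, rose from 13.3 ± 0.945 to 20.1 ± 2.43 CPM (SD, n = 3; log2 fold change 0.59, standard error 0.12, edgeR adjusted p = 0.0330). Tle2, a corepressor of the Groucho family that Pax and other homeodomain proteins can recruit, fell from 227 ± 47.2 to 98.2 ± 17.8 CPM (SD, n = 3; log2 fold change -1.21, standard error 0.19, edgeR adjusted p = 0.0110). Eya1, a transcriptional coactivator, had 57, 64 and 54 counts in Bnc1+/+ and 131, 46 and 100 counts in Bnc1tr/tr ovaries, which overlapped. Of 23 Polycomb genes and demethylases of their mark, all 23 were tested and 1 was called higher and 1 lower, again near the shares over all genes. Their median log2 fold change was 0.12. An unadjusted p under 0.05 in either direction was found for 6 of the 23, beside the same 11.9% and 12.3% of all genes. Cbx2, which reads the Polycomb mark, rose from 48.6 ± 2.08 to 72.8 ± 10.1 CPM (SD, n = 3; log2 fold change 0.58, standard error 0.11, edgeR adjusted p = 0.0248). Jarid2, which guides the enzyme that writes the mark, fell from 84.2 ± 9.60 to 61.1 ± 2.59 CPM (SD, n = 3; log2 fold change -0.46, standard error 0.10, edgeR adjusted p = 0.0367). The 2 cofactor calls dropped to 0 without Bnc1+/+ ovary 4 (4 genes at an unadjusted p under 0.05, edgeR) and to 1 without Bnc1+/+ ovary 1, Bnc1+/+ ovary 7 or Bnc1tr/tr ovary 3. The 2 Polycomb calls dropped to 0 without any one of Bnc1+/+ ovaries 1, 4 and 7 or Bnc1tr/tr ovary 3 and to 1 without Bnc1tr/tr ovary 1 or 2, with 4 to 6 genes at an unadjusted p under 0.05 (edgeR).

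Markers of other tissues and of ovarian cell types were read beside the called members, without lists for eye, B cells or tooth. Of 10 neuron markers 7 were tested and 1 was called, Elavl3, higher with 72, 91 and 69 counts in Bnc1+/+ and 200, 133 and 129 counts in Bnc1tr/tr ovaries. Of the 7 tested, 4 had a positive log2 fold change, and those not tested (Snap25, Nefl and Nefm) had 3 or fewer counts in every ovary. Summed neuron markers were 42.9 to 44.8 CPM in Bnc1+/+ ovaries and higher in every Bnc1tr/tr ovary, at 53.7 to 61.3 CPM. Of 12 epidermis and hair markers 7 were tested and 3 were called higher, all keratins of the inner hair sheath or cortex (Krt35, Krt71 and Krt73), with sums of 5.64 to 6.34 CPM in Bnc1+/+ and 13.8 to 18.5 CPM in Bnc1tr/tr ovaries. Of these 7 tested markers 5 had a positive log2 fold change. Among those not tested, Krt5, Dsg4 and Krt27 had no more than 1 count in any ovary. Of 5 kidney tubule markers 1 was tested and not called, and the summed level overlapped between the genotypes, reaching no more than 7.84 CPM. Of 4 pituitary markers 2 had no count. Of 7 skeletal muscle markers 5 were tested and none was called, with sums of 6.68 to 8.87 CPM in Bnc1+/+ and 5.58 to 7.88 CPM in Bnc1tr/tr ovaries. Of the other lists, 1 of 8 surface epithelium markers (Lrrn4) and 1 of 6 theca and stroma markers (Nr2f2) were called higher, as was 1 of 11 motile cilia markers (Tekt2), and none of 4 oviduct secretory, 5 smooth muscle and 4 tested immune markers was called.

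**Figure D4:**
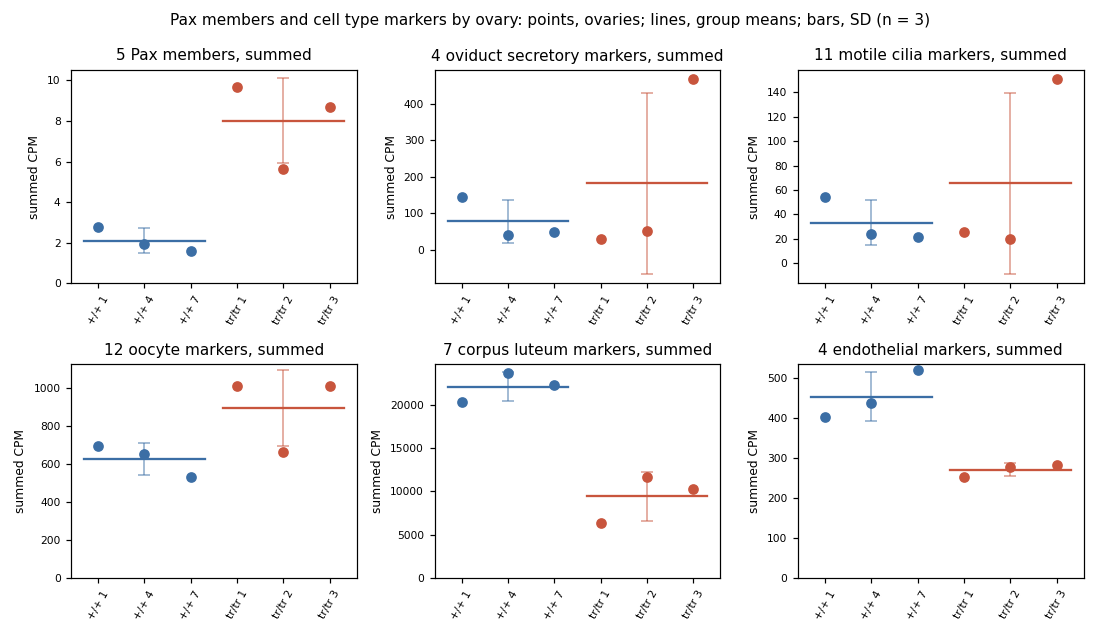
Summed CPM of the 5 Pax members and of 5 marker lists in each ovary (blue, Bnc1+/+; red, Bnc1tr/tr), with the group mean as a line and the SD as a bar. The Pax sum separates the genotypes, while the oviduct sums are highest in Bnc1tr/tr ovary 3 and Bnc1+/+ ovary 1 and the corpus luteum and endothelial sums are lower in all Bnc1tr/tr ovaries.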

How the data were processed

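Total RNA of 3 Bnc1+/+ and 3 Bnc1tr/tr ovaries was extracted with TRIzol, and single-end Ion Proton libraries were sequenced by the authors. The authors deposited raw counts of reads per gene symbol, without normalization. The submitters' notes name mm10 and also Sscrofa10.2, with no role given, and the aligner, counter, annotation and strand setting are not given in the sources used here. Groups follow the genotype labels, and numbers come from the sample titles. The study describes the ovaries as biological replicates and its comparisons as between littermates, and the labels do not tie ovaries to mice or litters.

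Counts were filtered with filterByExpr (minimum count 10), scaled with TMM and compared with edgeR 4.0.16 in R 4.3.3 (glmQLFit and glmQLFTest, two-sided), with Benjamini-Hochberg adjustment over all 19423 genes and a threshold of 0.05. The fit was tested on simulated data. Replicates differed by more than counting noise (chi-square per degree of freedom 15.6 to 58.5). Positions and exon lengths are from GRCm38 with GENCODE M21, and promoters from RefSeq (GRCm38.p6). Symbols were matched exactly, and 2 matching genes are not reported here and enter no count over the members.

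The members and lists were chosen with earlier results of these data known. Genes named are the called members, the 10 highest by RPKM, those with known roles in gonad or ducts, and tested members without overlap. Pitx1 meets none of these rules and is given in addition. Members under the filter and some genes under the minimum are named as well. Alternatives were other scaling (DESeq2 size factors or library size), no filter, at least 10 counts in every ovary, each ovary left out, DESeq2 1.42.0, limma-voom (limma 3.58.1), a robust fit, an absolute log2 fold change over 1, and, for the count without overlap, at least 50 counts. Leaving out the 2 ovaries with the most oviduct markers was added after seeing the data.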

Additional observations from a re-analysis of the deposited data

How the results depend on the processing

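The number of members called was 4. It lay between 0 and 6 with single ovaries left out (edgeR, with 8 to 10 at an unadjusted p under 0.05), and at 4 to 6 with other scaling, no filter, DESeq2, limma-voom or a robust fit. With an absolute log2 fold change over 1 it was 3, all higher, since Lhx6 is then lost. With at least 10 counts in every ovary it was 2, since Pax5 and Pax6 then leave the test. With both ovaries richest in oviduct markers left out (an alternative chosen after seeing the data) edgeR called 0, with 8 at an unadjusted p under 0.05 and 2 ovaries per genotype. Over all genes, calls went from 1372 to 1378 with DESeq2 size factors and to 1728 with library size alone. They were 1303 with limma-voom and 1394 with a robust fit. Without the filter 1530 of 31717 genes were called, and with at least 10 counts in every ovary 1189 of 17737. DESeq2 called 2420, and edgeR called 304 with both ovaries richest in oviduct markers left out. Calls of cofactor genes moved from 2 to 5 with DESeq2, to 1 without those ovaries and to 1 with an absolute log2 fold change over 1, and ranged from 0 to 3 with single ovaries left out. Calls of Polycomb genes moved from 2 to 0 without those ovaries (edgeR, 3 with an unadjusted p under 0.05), to 0 with the fold threshold, and from 0 to 1 with single ovaries left out, while DESeq2 called 3 on all 6 ovaries. Library size alone also gave 2 Polycomb calls, but both were higher, so Jarid2 was then not called (edgeR, 11 at an unadjusted p under 0.05). The cause was not tested. The log2 fold change of Bnc1 ranged from -0.10 to 0.26 with single ovaries left out, turning negative without Bnc1tr/tr ovary 1. Members with differences near 0 also changed sign when 1 ovary was left out. Their log2 fold changes then ranged from -0.060 to 0.37 for Lhx9 (negative without Bnc1tr/tr ovary 2), from -0.089 to 0.18 for Pou2f1, from -0.065 to 0.11 for Pou6f1 (and -0.029 without both ovaries) and from -0.83 to 0.46 for Pitx1. Library size alone placed the median log2 fold change of all genes at 0.12, against 0.018 with TMM, and kept the direction of every tested member. The number of members without overlap was 16, and it was 16 with DESeq2 size factors and 15 with library size alone (without Irx6). Among members with at least 50 counts, which are the 21 tested ones, it was 11 (9 higher and 2 lower). At the minimum of 10 counts, 13.7% of all genes were higher and 13.9% lower without overlap. The share over all genes at 50 or more counts is not given, so the count of 11 is a description only.

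No paired analysis was possible because the genotypes share only the replicate number 1, and, although the study compared littermates, no label says which ovaries shared a litter. The 16 members under the filter had 10 to 36 counts each, which limits what a test can show of them.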
